A study of Mus musculus with 18 samples.

Results

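Lin28a, Lin28b, Trim71, Hmga2, Hmga1, Igf2bp1, Igf2bp2 and Igf2bp3 are genes that are active in embryos, decline as tissues mature and are switched on again in many tumours. These 8 oncofetal genes were found by their symbols among the 34244 named genes of an RNA-seq table of mouse embryos, and all 8 were present and passed the filter on low values. They were chosen with their measured values in view. Which comparison was used is not stated, and it is taken here to be the difference between embryos labelled Dnmt3b-/- and Dnmt3b+/+ embryos, so this difference is given below as a description, and where its calls are counted they stand beside the share of all genes called and nothing is read from them.

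The data are from whole FVB embryos at E11.5, with 3 embryos of each of 3 genotypes and 1 library of total RNA per embryo. Dnmt3b encodes a DNA methyltransferase. Dnmt3b+/+ embryos were wild type at this gene, Dnmt3b-/- embryos carried a conventional null allele on both chromosomes, and Dnmt3bCI/CI embryos carried a knock-in, made with CRISPR/Cas9, that replaces the adjacent proline and cysteine of the catalytic site by valine and aspartic acid, a change made to remove the catalytic activity and keep the protein, for which the study leaves some residual activity possible. No embryo carried a transgene or received a treatment. The embryos came from matings of heterozygous mice, and their litters and sex are not given in the sources used here. The comparisons ask what the loss of the whole protein, against the loss of its catalytic activity alone, does to expression in the embryo.

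Levels are in FPKM, fragments scaled to exon length and library size, and can be compared between genes because they are per length. The totals behind the values ranged from 38451729 to 49808777 reads per library. Dnmt3b itself stood at 2.25, 1.62 and 2.04 FPKM in Dnmt3b+/+ and, with the null allele, at 2.45, 3.12 and 3.33 FPKM (log2 difference 0.57, adjusted p = 0.0248). It was thus not lower there, but the value is summed over the whole gene and may not check the deletion, and every direction given for embryos labelled Dnmt3b-/- rests on that label. In the same libraries Dazl and Ddx4, germ cell genes that DNA methylation is known to silence in somatic cells, were at 2.56 to 2.85 and 1.78 to 1.94 FPKM, above every library of the other genotypes. Dnmt3b+/+ replicate 2 stood apart from the other libraries in its cell type markers. Afp, the main fetal liver serum protein, was at 0.119 FPKM there and between 23.8 and 93.3 FPKM in the other 8 libraries. This library also had the largest sum of 10 neuronal markers (522 FPKM). Other libraries stood apart in the 8 heart markers, whose sum was 12.2 FPKM in Dnmt3b+/+ replicate 1, 19.7 FPKM in Dnmt3bCI/CI replicate 3 and 32.1 FPKM in replicate 1 labelled Dnmt3b-/-, against 133 FPKM in Dnmt3b+/+ replicate 2. Their part in the results was not tested, and values without Dnmt3b+/+ replicate 2 are given where it decides a count.

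The genes form a known circuit. Lin28a and Lin28b are RNA-binding proteins that block the maturation of let-7, a family of microRNAs that accumulates as cells differentiate. Let-7 in turn represses messages that carry matches to its seed in their 3′ UTR, among them Lin28a and Lin28b themselves, Trim71, Hmga2 and the Igf2bp genes. Trim71 is an RNA-binding ubiquitin ligase first known from developmental timing in worms, Hmga1 and Hmga2 are architectural chromatin proteins that bind the minor groove of AT-rich DNA, and the Igf2bp proteins bind messages such as that of Igf2 and affect their stability and translation.

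The let-7 sequences are shown because they define the sites searched in the 8 genes. RefSeq lists 9 mouse mature let-7 family sequences in the tables used here, and all 9 share the seed (bases 2 to 8, in capitals). Between let-7a and let-7i, 4 bases differ, all outside the seed. Let-7a, let-7g, let-7i and miR-98 stand for the family.
mmu-let-7a-5p: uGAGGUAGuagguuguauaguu
mmu-let-7g-5p: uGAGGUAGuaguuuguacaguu
mmu-let-7i-5p: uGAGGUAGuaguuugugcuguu
mmu-miR-98-5p: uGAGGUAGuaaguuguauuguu

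The complement of the seed, CTACCTC, was searched on the sense strand of the longest annotated 3′ UTR of every gene (GENCODE M21, GRCm38), and so was the 8-base form CTACCTCA, which contains it and adds an A opposite the first base. The 7-base match was in 9.02% of 20846 genes with a 3′ UTR, and the 8-base match in 3.06%. All 8 members held at least 1 match. Lin28b, Hmga2, Igf2bp1 and Trim71 had 4 matches each, a number reached in 0.0576% of all genes. Lin28a had 2, and Hmga1, Igf2bp2 and Igf2bp3 had 1 each. Among 3′ UTRs within 20% of the same length, as many matches were found in 0.238% for Lin28b, 0.134% for Hmga2, 0.358% for Igf2bp1, 0.512% for Trim71 and 2.11% for Lin28a, and in 8.07%, 12.1% and 13.3% for Hmga1, Igf2bp2 and Igf2bp3. All 4 matches of Trim71 and both of Lin28a were of the 8-base form, and Hmga1 had none of that form. The members are textbook let-7 genes, so these counts describe them and are not a test. A match is a run of letters in an annotated transcript, and which 3′ UTR the embryos used was not measured.

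One window per gene, with the match in capitals, shows what the sites look like. Where a gene has several matches, the 8-base match nearest to the stop codon is given. The windows are on GRCm38, at chr4:134005185-134005211 for Lin28a, chr10:45381018-45381044 for Lin28b, chr9:114512468-114512494 for Trim71, chr10:120364220-120364246 for Hmga2, chr11:95961774-95961800 for Igf2bp1, chr16:22059469-22059495 for Igf2bp2 and chr6:49086783-49086809 for Igf2bp3, all on the minus strand, and at chr17:27563277-27563303 on the plus strand for Hmga1.
Lin28a: gcacagcctgttgaaCTACCTCAtttt
Lin28b: acccgggcgggaagtCTACCTCAtgca
Trim71: aacattgcctaagtcCTACCTCAgctt
Hmga2: gccgacattcaatttCTACCTCAgcat
Hmga1: tcctctgttcacaaaCTACCTCtggac
Igf2bp1: gctgtgcgaagtaaaCTACCTCAaggt
Igf2bp2: acacacaaataaaagCTACCTCAggtg
Igf2bp3: tgcatttttactcaaCTACCTCAggta

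The Lin28b match lies 36 bases and the Hmga2 match 58 bases after the stop codon, whereas the first match of Igf2bp1 lies 1715 bases after it. In Trim71 the matches stand in pairs, 166 and 262 bases and again 3591 and 3617 bases after the stop codon.

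Each of the 8 genes had a higher level in every embryo labelled Dnmt3b-/- than in any Dnmt3b+/+ or Dnmt3bCI/CI embryo. On the log2 scale used here the difference was largest for Lin28a and Trim71, which were low in wild type embryos, about equal for Hmga2 (1.09) and Lin28b (1.05), and smallest for Igf2bp2. Across all 19397 genes tested, 15.1% had all 3 values of the embryos labelled Dnmt3b-/- above all 3 Dnmt3b+/+ values, and 16.7% had them above all 3 Dnmt3bCI/CI values. Differences below are on the log2(FPKM + 0.1) scale, which understates the change of low genes, and come from a limma fit over all 9 embryos.

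**Figure D1:**
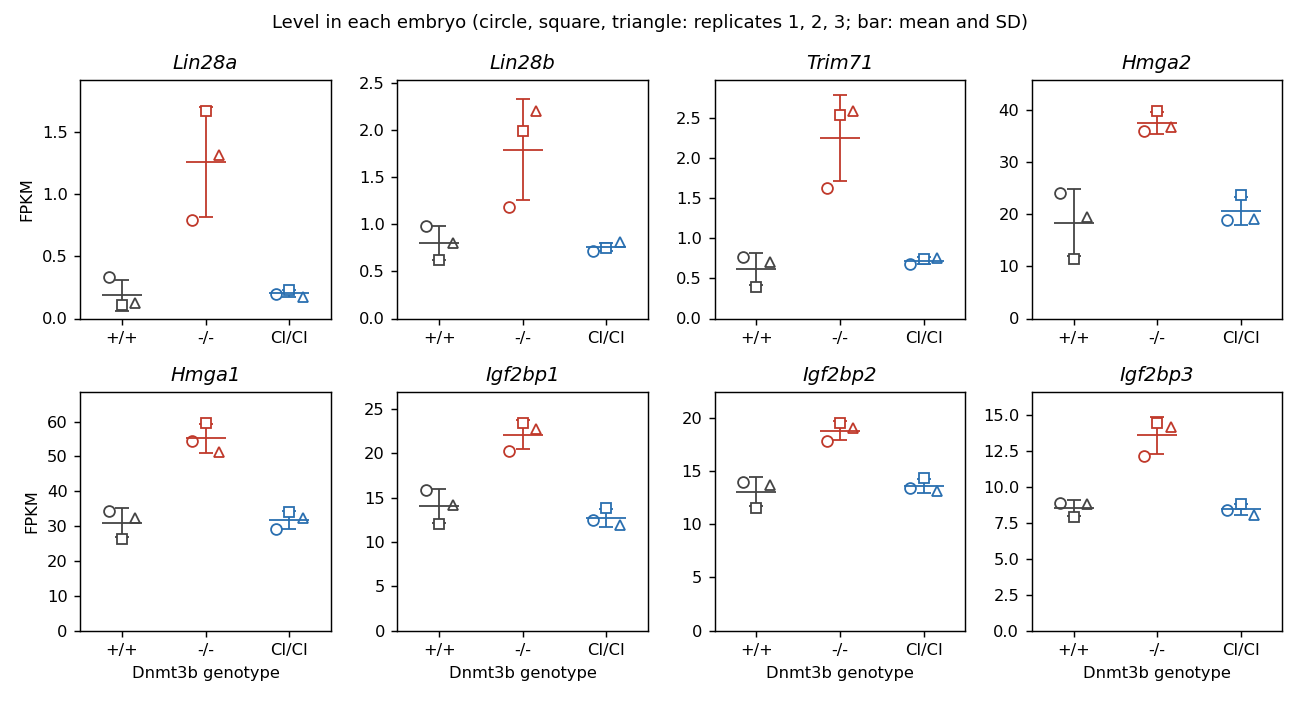
Level in FPKM (vertical axes, starting at 0) of each of the 8 genes in each of the 9 embryos by Dnmt3b genotype, with replicates 1, 2 and 3 as circle, square and triangle and the mean and SD as bars. In every panel the 3 embryos labelled Dnmt3b-/- lie above the other 6, as for Lin28a with 0.791 FPKM or more against 0.331 FPKM or less.

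Lin28a, the let-7 antagonist that is typical of pluripotent cells, was at 0.331, 0.106 and 0.128 FPKM in Dnmt3b+/+, at 0.791, 1.67 and 1.31 FPKM in embryos labelled Dnmt3b-/-, and at 0.195, 0.231 and 0.176 FPKM in Dnmt3bCI/CI. The lowest embryo labelled Dnmt3b-/- exceeded the highest Dnmt3b+/+ embryo 2.39 times. These levels correspond to 20 to 59 reads in Dnmt3b+/+, 126 to 283 in the embryos labelled Dnmt3b-/- and 27 to 40 in Dnmt3bCI/CI. The difference between Dnmt3b-/- and Dnmt3b+/+ was 2.26 ± 0.32 (SE) on the log2 scale, and the ratio of the mean levels was 6.68.

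Trim71 was at 0.763, 0.392 and 0.699 FPKM in Dnmt3b+/+, at 1.63, 2.54 and 2.59 FPKM in embryos labelled Dnmt3b-/-, and at 0.675, 0.740 and 0.752 FPKM in Dnmt3bCI/CI. The groups did not overlap, with the lowest embryo labelled Dnmt3b-/- at 2.14 times the highest Dnmt3b+/+ embryo, and the difference in log2 was 1.73 ± 0.24 (SE).

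Lin28b, the paralog of Lin28a that persists longer in development, was at 0.978, 0.618 and 0.802 FPKM in Dnmt3b+/+, at 1.18, 1.99 and 2.20 FPKM in embryos labelled Dnmt3b-/-, and at 0.717, 0.749 and 0.809 FPKM in Dnmt3bCI/CI. Replicate 1 labelled Dnmt3b-/- lay close to the highest Dnmt3b+/+ embryo, at 1.21 times its value. The log2 difference between these genotypes was 1.05 ± 0.23 (SE).

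Hmga2 was at 24.1, 11.47 and 19.5 FPKM in Dnmt3b+/+, at 36.0, 39.8 and 36.6 FPKM in embryos labelled Dnmt3b-/-, and at 18.9, 23.7 and 19.1 FPKM in Dnmt3bCI/CI. Here the spread lay in the Dnmt3b+/+ embryos, with a coefficient of variation of 34.8% against 5.45% in the embryos labelled Dnmt3b-/-, and replicate 2 of Dnmt3b+/+ was lowest. The log2 difference between the genotypes was 1.09 ± 0.23 (SE).

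Hmga1, its more abundant paralog, was at 34.3, 26.3 and 32.5 FPKM in Dnmt3b+/+, at 54.5, 59.5 and 51.4 FPKM in embryos labelled Dnmt3b-/-, and at 29.1, 34.0 and 32.4 FPKM in Dnmt3bCI/CI, a log2 difference between the first pair of 0.83 ± 0.11 (SE). The study counted reads above a minimum mapping quality, which leaves out STAR alignments to several places, so the level of Hmga1 rests on reads that align to it alone.

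The 3 Igf2bp genes were at similar levels and differed by similar amounts. Igf2bp1 was at 15.9, 12.03 and 14.2 FPKM in Dnmt3b+/+, at 20.2, 23.4 and 22.7 FPKM in embryos labelled Dnmt3b-/-, and at 12.4, 13.8 and 11.9 FPKM in Dnmt3bCI/CI. Igf2bp2, which stays on in adult tissues, was at 14.0, 11.48 and 13.7 FPKM, then 17.8, 19.5 and 19.05 FPKM, and 13.4, 14.3 and 13.1 FPKM in the same order. Igf2bp3, which is mostly silent after birth, was at 8.91, 7.92 and 8.82 FPKM, then 12.2, 14.5 and 14.2 FPKM, and 8.44, 8.87 and 8.09 FPKM. In each of the 3 the embryos labelled Dnmt3b-/- stood above the rest without overlap. The log2 differences between Dnmt3b-/- and Dnmt3b+/+ were 0.66 ± 0.11, 0.52 ± 0.08 and 0.66 ± 0.08 (SE).

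Read as calls, 4 of the 8 members (Lin28a, Trim71, Hmga2 and Lin28b) had an adjusted p under 0.05 and a fold of at least 2, higher in the embryos labelled Dnmt3b-/-, against 1.07% of all tested genes. By the adjusted p alone it was 8 of 8, against 9.41%. Since the members were chosen on this contrast, nothing is read from these counts. Just inside the fold threshold stood Lin28b at 1.05 and just outside it Hmga1 at 0.83. Without Dnmt3b+/+ replicate 2 the count fell to 2, with Hmga2 at 0.78 and Lin28b at 0.89 on the log2 scale, and with a pseudocount of 1 FPKM it was also 2, with Lin28a at 0.91 and Lin28b at 0.62. In bulk tissue, more cells of a type and more RNA per cell cannot be told apart.

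**Figure D2:**
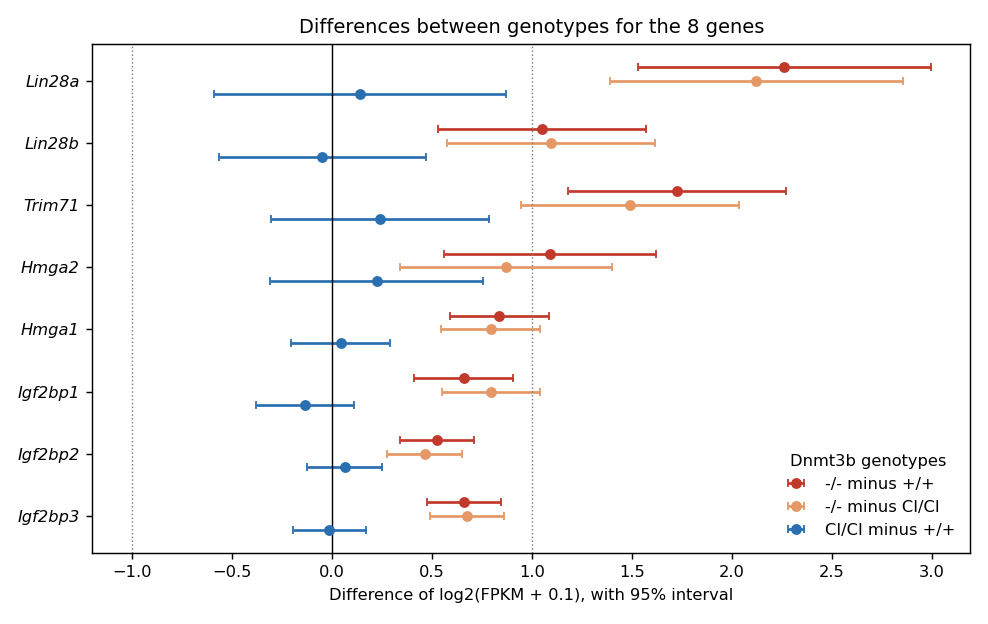
Difference of log2(FPKM + 0.1) between genotypes (horizontal axis) for each of the 8 genes, with the 95% interval from limma and dotted lines at a fold of 2. The differences of embryos labelled Dnmt3b-/- from either other genotype lie above 0, from 0.46 for Igf2bp2 to 2.26 for Lin28a, and the differences of Dnmt3bCI/CI from Dnmt3b+/+ lie around 0.

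The comparison of Dnmt3bCI/CI with Dnmt3b+/+ was tested on the assumption that it was not used to choose the genes, which the sources used here do not state, and it shares the Dnmt3b+/+ libraries with the first. None of the 8 members differed (limma, adjusted p from 0.949 to 0.989, 0 with an unadjusted p under 0.05), and 0.129% of all genes were called in this comparison. The log2 differences ranged from -0.14 for Igf2bp1 to 0.24 for Trim71. Of the 3 Dnmt3bCI/CI values, all lay within the range of the Dnmt3b+/+ values for 6 members, and 2 of 3 did for Igf2bp1 and Igf2bp2. For all 8 members that range ran from Dnmt3b+/+ replicate 2, which stood apart in its cell type markers, up to replicate 1. The share of all tested genes that lay within it was not computed, so nothing is read from these counts. The 95% interval of the fold was narrow for the abundant genes, from 0.872 to 1.13 for Igf2bp3, 0.918 to 1.19 for Igf2bp2, 0.768 to 1.08 for Igf2bp1 and 0.867 to 1.22 for Hmga1. It was wider for Lin28a (0.664 to 1.83), Trim71 (0.808 to 1.72), Hmga2 (0.808 to 1.68) and Lin28b (0.674 to 1.39), so that a wider span of folds is compatible with the values of these 4 genes.

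Against Dnmt3bCI/CI, the embryos labelled Dnmt3b-/- had log2 differences of 2.12 ± 0.32 (SE) for Lin28a, 1.49 ± 0.24 for Trim71, 1.10 ± 0.23 for Lin28b and 0.87 ± 0.23 for Hmga2. The values were 0.79 ± 0.11 for both Hmga1 and Igf2bp1, 0.67 ± 0.08 for Igf2bp3 and 0.46 ± 0.08 for Igf2bp2. Here 3 of 8 members passed both thresholds, against 1.1% of all genes called higher, and 8 of 8 passed the adjusted p, against 9.7%. These differences rest on the same libraries labelled Dnmt3b-/- as those above and are no independent evidence. With a pseudocount of 1 FPKM none of the 8 reached a fold of 2 in this comparison.

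The order of the levels was almost the same in the 3 genotypes. Hmga1 was highest, with a mean of 31.0 ± 4.22 FPKM in Dnmt3b+/+, 55.1 ± 4.11 in the embryos labelled Dnmt3b-/- and 31.8 ± 2.51 in Dnmt3bCI/CI (SD, n = 3), followed by Hmga2, the Igf2bp genes and, far below, Lin28b, Trim71 and Lin28a. In Dnmt3b+/+, Hmga2 and Igf2bp1, Igf2bp1 and Igf2bp2, and Lin28b and Trim71 overlapped between embryos. In the embryos labelled Dnmt3b-/- the mean of Trim71 (2.25 FPKM) lay above that of Lin28b (1.79 FPKM), but these neighbours overlapped, and so did Lin28b and Lin28a (1.26 FPKM). Among all tested genes, the mean Dnmt3b+/+ level of Lin28a was at the 10.5th percentile and that of Hmga1 at the 96.5th.

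Within families, the shares differed most for the Lin28 pair and by a few percentage points for the Igf2bp genes. Lin28a made up 25.3%, 14.6% and 13.7% of the Lin28a and Lin28b level in Dnmt3b+/+, 40.0%, 45.6% and 37.3% in the embryos labelled Dnmt3b-/- and 21.4%, 23.6% and 17.8% in Dnmt3bCI/CI. The shares of the embryos labelled Dnmt3b-/- did not overlap with the others. Igf2bp1 made up 39.3% ± 1.46 of the summed Igf2bp level in Dnmt3b+/+, 40.6% ± 0.227 in the embryos labelled Dnmt3b-/- and 36.55% ± 0.775 in Dnmt3bCI/CI (SD, n = 3), where all 3 values, 35.9% to 37.4%, lay below those of Dnmt3b+/+, 38.3% to 41.0%. The share of Igf2bp2 did not overlap between any of the genotypes, with 36.05% to 37.25% in Dnmt3b+/+, 33.97% to 35.41% in the embryos labelled Dnmt3b-/- and 38.63% to 39.61% in Dnmt3bCI/CI. Hmga2 made up 36.4% ± 5.51, 40.5% ± 0.992 and 39.2% ± 1.95 of the Hmga1 and Hmga2 level in the same order.

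The 8 genes also varied together among embryos of 1 genotype. Dnmt3b+/+ replicate 1 was the highest of its genotype for all 8 genes and replicate 2 the lowest for all 8, whereas over all tested genes replicate 1 was highest in 35.2% and replicate 2 lowest in 43.3%. Replicate 1 labelled Dnmt3b-/- was the lowest of its group for 7 of 8 genes (all tested genes, 33.1%), the exception being Hmga1, and replicate 2 was the highest for 6 (all tested genes, 32.0%). In Dnmt3bCI/CI, replicate 2 was the highest for 6 genes (all tested genes, 33.0%), while replicates 1 and 3 were each the lowest for 4 (38.3% and 27.6%). The coefficients of variation in Dnmt3bCI/CI, from 4.57% for Igf2bp3 to 14.0% for Lin28a, were below those of Dnmt3b+/+, from 6.39% for Igf2bp3 to 66.0% for Lin28a. After the genotype means were removed, the correlation of log2 levels over the 9 embryos was positive for all 28 pairs of members, with a median r of 0.81 and a range from 0.43 to 0.96, against a mean r of 0.0227 over all pairs of tested genes. These correlations are a description over 9 libraries, and each pair shares the libraries and their scaling.

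**Figure D3:**
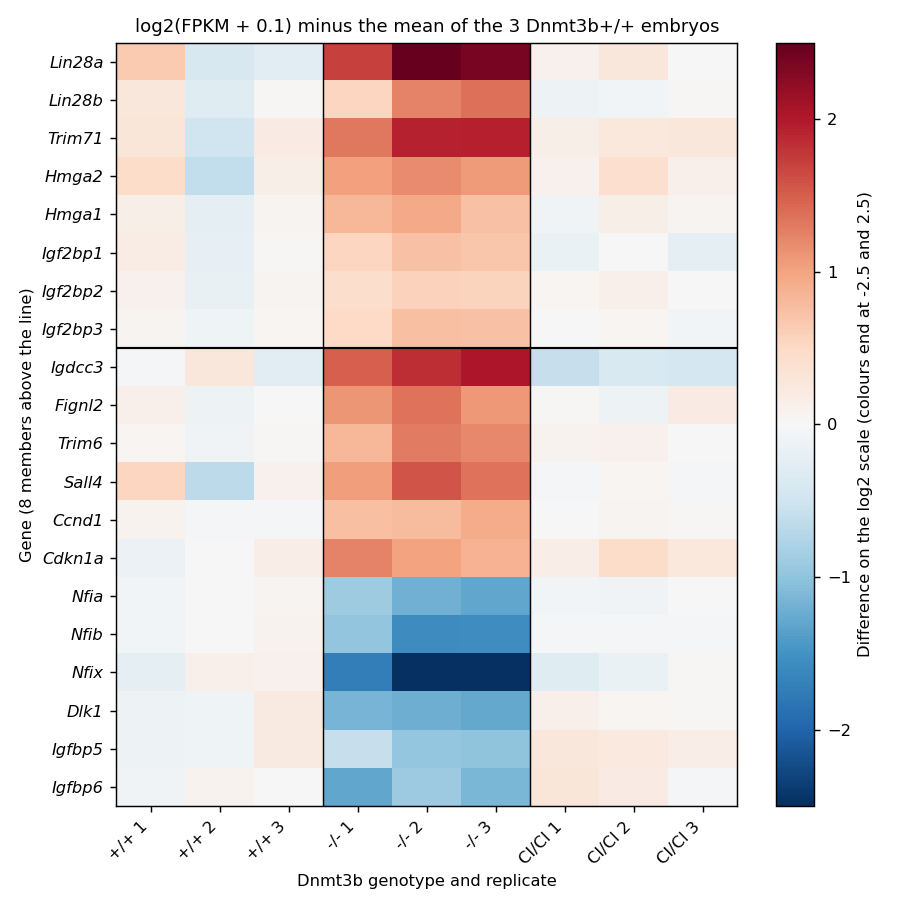
Heat map of log2(FPKM + 0.1) minus the mean of the 3 Dnmt3b+/+ embryos, with 1 column per embryo and 1 row per gene, the 8 members above the line and genes of the lists described in the text below it. Red marks values above and blue values below the Dnmt3b+/+ mean. The 3 columns labelled Dnmt3b-/- are red for all 8 members and blue for Nfia, Nfib and Nfix, and replicate 1 among them is paler for Lin28a and Trim71.

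Cell type markers moved with the genotype and, in part, with the members. In the embryos labelled Dnmt3b-/-, 6 of 8 skeletal muscle markers fell, and their summed level was 24.8 to 60.0 FPKM against 68.5 to 107 FPKM in Dnmt3b+/+ and 112 to 119 FPKM in Dnmt3bCI/CI. Tnnt3, a fast muscle troponin, fell by 1.81 on the log2 scale (adjusted p = 0.00337), and Myh3, Myod1 and Myl1 also fell, although the calls of Myh3 and Myod1 were lost without Dnmt3b+/+ replicate 3 or without replicate 2 or 3 labelled Dnmt3b-/- (Myod1 also without Dnmt3b+/+ replicate 2, with the replicate block, with only the 2 genotypes in the fit and with no filter on low values), with an adjusted p of at most 0.0523 and 0.0861. The count of muscle markers that fell was 4 without Dnmt3b+/+ replicate 2, 3 without Dnmt3b+/+ replicate 3, and 2 and 3 without replicate 2 or 3 labelled Dnmt3b-/-. Of 8 cartilage markers, 4 fell, among them Matn1 by 3.92 (adjusted p = 0.000112), Matn4 by 4.25 and Acan by 3.31, while the fourth, Col11a1, fell by 1.08 and was lost with a pseudocount of 1 FPKM and without Dnmt3b+/+ replicate 3 or replicate 2 or 3 labelled Dnmt3b-/-. The sum was 85.1 to 134 FPKM against 151 to 225 FPKM. The embryonic globins Hbb-bh1 and Hba-x rose by 3.01 and 1.79 (adjusted p = 0.00418 and 0.018; the call of Hba-x was lost, with an adjusted p of at most 0.0599, without replicate 3 of either genotype or with only the 2 genotypes in the fit), 2 of 3 primitive red cell markers, with a sum of 1768 to 5673 FPKM against 1300 to 2057 FPKM in Dnmt3b+/+. None of the 4 definitive red cell markers passed the test (limma, 0 with an adjusted p under 0.05), with log2 differences of -0.46 for Hba-a1 and -1.04 for Hbb-bs, but without Dnmt3b+/+ replicate 2 a pair of them (Hbb-bs and Hbb-bt) fell, which made 2. Their sum was 571 to 1535 FPKM against 857 to 2397 FPKM.

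Of the 10 neuronal markers none passed the test, but all 10 log2 differences were negative, with a median of -0.50 (-0.34 for Tubb3 and -0.04 for Nefm). Without Dnmt3b+/+ replicate 2, 7 were negative and the median was -0.24, and without replicate 1 labelled Dnmt3b-/- 1 (Dcx) fell. The sum of the 10 neuronal markers was 275, 522 and 350 FPKM in Dnmt3b+/+ replicates 1 to 3 and 459.5, 249.4 and 214 FPKM in replicates 1 to 3 labelled Dnmt3b-/-, so that the embryo with the largest sum was the one with the lowest mean level of the members in both genotypes. In Dnmt3bCI/CI the sums were 356, 412 and 406 FPKM, and replicate 1, with the smallest sum, had the lowest mean of the members. All neuronal, muscle and cartilage markers were detected in the fit, so none of these lists was at the floor. The part of these markers in the differences of the members was not tested. Without both Dnmt3b+/+ replicate 2 and replicate 1 labelled Dnmt3b-/-, an alternative added after the values were seen, the log2 differences of the members were between 0.47 for Igf2bp2 and 2.33 for Lin28a, and 3 members passed both thresholds, Hmga2 falling below the fold at 0.81.

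**Figure D4:**
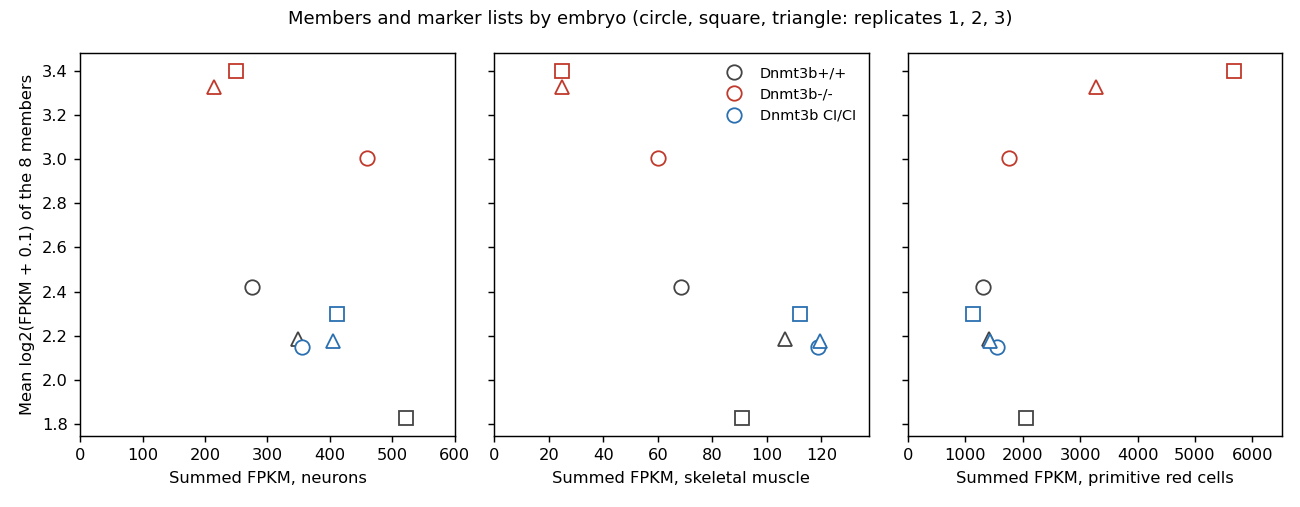
Mean log2(FPKM + 0.1) of the 8 members (vertical axis) against the summed FPKM of the neuronal, skeletal muscle and primitive red cell markers (horizontal axes), with 1 point per embryo and replicates 1, 2 and 3 as circle, square and triangle. Replicate 1 labelled Dnmt3b-/- and replicate 2 of Dnmt3b+/+ have the lowest mean of their genotypes (3.01 and 1.83) and the largest neuronal sums (459.5 and 522 FPKM).

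Genes around the members were grouped into 8 lists. Over all 19397 tested genes, 1.07% were called higher and 3.38% lower in the embryos labelled Dnmt3b-/-, and the median log2 difference was -0.07. Mature let-7 was not measured by this assay. Of 17 let-7 genes and host genes, 3 host genes were in the table, and 0 of 3 passed the test. Wdr82, whose locus holds let-7g, was at 16.9 FPKM in Dnmt3b+/+ and 15.3 FPKM in the embryos labelled Dnmt3b-/- (log2 difference -0.14 ± 0.05 SE, adjusted p = 0.0605), and Huwe1, whose locus holds let-7f-2 and miR-98, was at 15.8 and 15.7 FPKM (adjusted p = 0.953).

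Of the 22 factors that mature or degrade microRNAs, 0 were called, and the median log2 difference was 0.01. By the adjusted p alone 3 were higher (Drosha, Tarbp2 and Hnrnpa1), against 9.41% of all tested genes. Another 3 were lower (Ago4, Tnrc6b and Tnrc6c), against 2389 of 13653 genes without a let-7 match, and nothing is read from these counts. Drosha, the nuclease that cuts primary microRNAs, was at 16.2 and 20.5 FPKM (log2 difference 0.34, adjusted p = 0.00802), and Ago4, an Argonaute protein that binds mature microRNAs, at 1.74 and 1.01 FPKM (log2 difference -0.73, adjusted p = 0.0132). Hnrnpa1, which binds the let-7a precursor, was at 351 ± 17.0 FPKM against 439.5 ± 40.9 FPKM in the embryos labelled Dnmt3b-/- (SD, n = 3), a log2 difference of 0.32 (adjusted p = 0.0365). Ddx17, a helicase of the Drosha complex, was at 103 and 93.7 FPKM (log2 difference -0.13, adjusted p = 0.167). Zcchc11, the uridylyl transferase that LIN28 recruits to let-7 precursors, was at 7.95 FPKM against 9.11 FPKM (log2 difference 0.19 ± 0.11 SE, adjusted p = 0.224).

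Of 36 textbook let-7 targets outside the members, 1 rose and 0 fell, and the median log2 difference was 0.14. Igdcc3, a receptor-like protein of the immunoglobulin superfamily with 2 matches in its 3′ UTR, rose from 5.19, 6.41 and 4.39 FPKM to 14.96, 19.3 and 21.6 FPKM (log2 difference 1.79 ± 0.16 SE, adjusted p = 0.000389), and stood at 3.51, 3.99 and 3.83 FPKM in Dnmt3bCI/CI. By the adjusted p alone, 10 targets were higher, against 9.41% of all tested genes. In the same way 6 were lower, a share similar to the 2389 of 13653 genes without a let-7 match. Cdc34, a ubiquitin-conjugating enzyme, was at 30.8, 30.1 and 31.9 FPKM in Dnmt3b+/+ and at 50.6, 54.0 and 45.7 FPKM in the embryos labelled Dnmt3b-/- (log2 difference 0.69, adjusted p = 0.00232). The lower ones included the proto-oncogene Myc, with a log2 difference of -0.62 (adjusted p = 0.0181), and Igdcc4, the neighbour and relative of Igdcc3, with -0.74 (adjusted p = 0.00366), while the related Mycn had 0.42 (adjusted p = 0.0106). Ccnd2, a cyclin of the G1 phase, was at 34.9 and 40.0 FPKM (log2 difference 0.20, adjusted p = 0.0698). Without replicate 1 labelled Dnmt3b-/- a further target, Stard13, was called lower, which made 2.

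Over the transcriptome, a let-7 match alone did not go with a higher level. Of 1547 tested genes with at least 1 match, members left out, 11 rose and 49 fell, with a median log2 difference of -0.10, whereas 13653 genes without a match had a median of -0.06. Of the 25 with 3 or more matches, 2 rose and 0 fell, with a median of -0.09. These were Fignl2, a relative of the microtubule-severing protein fidgetin, which rose from 3.26, 2.71 and 2.99 FPKM to 6.52, 7.81 and 6.39 FPKM (log2 difference 1.18, adjusted p = 0.00056), and Trim6, a TRIM family ubiquitin ligase with 6 matches, which rose from 0.101, 0.0821 and 0.0990 FPKM to 0.246, 0.380 and 0.348 FPKM (log2 difference 1.118, adjusted p = 0.00203). With a pseudocount of 1 FPKM both fell below a fold of 2, at 0.99 and 0.27. Nr6a1, the nuclear receptor with the largest number of matches (8), was at 0.435 and 0.404 FPKM (log2 difference -0.09, adjusted p = 0.67).

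**Figure D5:**
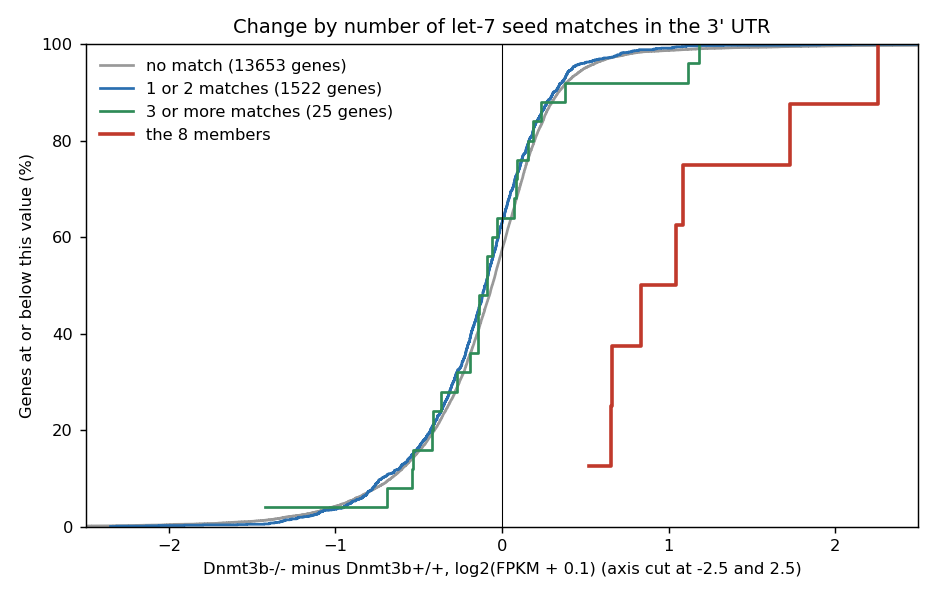
Cumulative share of genes (vertical axis, percent) by the difference of log2(FPKM + 0.1) between embryos labelled Dnmt3b-/- and Dnmt3b+/+ embryos (horizontal axis), for genes with 0, 1 or 2, and 3 or more let-7 matches in the longest 3′ UTR and for the 8 members. The 3 curves of other genes run close together around a median just below 0, while the members, chosen on this difference, lie between 0.52 and 2.26.

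In the insulin-like growth factor axis, whose Igf2 message is a classical target of the Igf2bp proteins, 0 of 16 genes rose and 1 fell. Igfbp6, an IGF2-binding protein, fell from 0.342, 0.397 and 0.367 FPKM to 0.0902, 0.148 and 0.111 FPKM (log2 difference -1.122, adjusted p = 0.00209). This call was lost with a pseudocount of 1 FPKM at -0.29, with quantile normalization, and without both Dnmt3b+/+ replicate 2 and replicate 1 labelled Dnmt3b-/-. The list's median log2 difference was -0.17. Igf2 itself was at 279, 280.0 and 330 FPKM in Dnmt3b+/+ and at 264, 223 and 205 FPKM in the embryos labelled Dnmt3b-/- (log2 difference -0.37 ± 0.12 SE, adjusted p = 0.0492), and H19, the noncoding RNA next to it, had a log2 difference of -0.15 (adjusted p = 0.524).

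Among 20 tested cell cycle inhibitors and cyclins, 1 rose and 0 fell. By the adjusted p alone 8 were higher, against 9.41% of all tested genes, and 2 lower, against 2389 of 13653 genes without a let-7 match. The higher ones were Cdkn1a, E2f3 and the cyclins Ccnd1, Ccnb1, Ccnb2, Ccna2, Ccne1 and Ccne2, with Ccnd1 at 0.83 on the log2 scale (limma, adjusted p = 0.000181). The lower ones were the inhibitor Cdkn2c and Rbl2. Cdkn1a, the inhibitor p21, rose from 7.41, 8.20 and 9.26 FPKM to 19.5, 16.6 and 15.2 FPKM (log2 difference 1.04, adjusted p = 0.00117), and it fell below a fold of 2, to 0.93 at the lowest over the alternatives, among them those without Dnmt3b+/+ replicate 1 or without replicate 1 labelled Dnmt3b-/-. The inhibitor Cdkn1c was at 329 and 292 FPKM (log2 difference -0.21, adjusted p = 0.525).

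Of 18 pluripotency genes, 12 were tested, 1 rose and 0 fell, and the median log2 difference was -0.05. Sall4, a zinc finger protein of embryonic stem cells and itself an oncofetal gene, rose from 0.769, 0.279 and 0.548 FPKM to 1.14, 1.69 and 1.43 FPKM (log2 difference 1.33 ± 0.28 SE, adjusted p = 0.0111). It was at 0.483, 0.522 and 0.475 FPKM in Dnmt3bCI/CI, and the call was lost with a pseudocount of 1 FPKM at 0.66. Sox2 was at 27.8 and 36.0 FPKM (log2 difference 0.36, adjusted p = 0.188), and Klf4 had a log2 difference of -0.75 (adjusted p = 0.0178). Without Dnmt3b+/+ replicate 2, 3 genes of the list were called, Sall4 higher and Utf1 and Pou5f1 lower.

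Of 20 other oncofetal and fetal growth genes, 1 rose (Sall4) and 1 fell, with a median of 0.09. Dlk1, an imprinted fetal growth regulator of the Notch ligand type, fell from 58.9, 60.0 and 75.2 FPKM to 28.7, 27.7 and 26.5 FPKM (log2 difference -1.22 ± 0.09 SE, adjusted p = 0.000181), and was at 70.2, 66.2 and 66.0 FPKM in Dnmt3bCI/CI.

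Of 13 tested early-to-late timing regulators, 0 rose and 3 fell, all of them nuclear factor I genes, transcription factors that come on late in neural and muscle progenitors. Nfix fell from 11.4, 14.8 and 14.6 FPKM to 4.004, 1.84 and 1.76 FPKM (log2 difference -2.47 ± 0.28 SE, adjusted p = 0.00101). Nfib fell by 1.37 and Nfia by 1.13 on the log2 scale (adjusted p = 0.00073 and 0.000436), the call of Nfia being lost with a pseudocount of 1 FPKM at -0.93. In all 3, replicate 1 labelled Dnmt3b-/- had the highest value of its group, as it had the lowest for 7 of the 8 members. None of these 3 genes was called in Dnmt3bCI/CI, where the log2 differences were -0.14, -0.02 and -0.05.

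The genes most like Lin28a over the 9 embryos were sought among 12789 tested genes with a mean of at least 1 FPKM, by Pearson's r of log2(FPKM + 0.1). The leading 6 were Snrnp40, a spliceosomal protein, with r = 0.998, the mismatch repair gene Msh6 with 0.991, the pyrophosphatase Ppa1 with 0.990, the thrombin receptor F2r with 0.988, the splicing factor Hnrnpm with 0.987 and the CTP synthase Ctps with 0.986. Their changes were smaller than that of Lin28a, from 20.2 to 23.7 FPKM for F2r and from 11.7 to 18.7 FPKM for Ppa1. Among the members, r with Lin28a ranged from 0.921 for Hmga2 to 0.977 for Igf2bp3, and 51 other genes had a higher r than Igf2bp3. With the mean of the 8 members after removal of the genotype means, the leading 6 were Pla2g12a, Tirap, Limd1, Nudcd2, Arhgap10 and Msh6, with r from 0.980 to 0.990. All points share libraries, and r is given as a description.

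The starts of 7 of the 8 genes, all but Igf2bp1, were looked up and differ widely in CpG content, the substrate of DNA methyltransferases. In windows from 250 bases before to 50 after the annotated start (RefSeq, GRCm38.p6; CpG counted as the letters CG, which read the same on both strands), Lin28b had 8 CpGs, Lin28a 10, Hmga2 12, Trim71 19, Igf2bp3 25, Igf2bp2 47 and the 2 windows of Hmga1 40 and 38, against a median of 7 over 32851 windows. The Lin28b window, at chr10:45470152-45470451, lies inside the GENCODE model of that gene, which begins at chr10:45486395 on the minus strand. Its count is thus of a start within that model. The 250 bases before the start are shown for Lin28a, with the largest difference among the members, and Igf2bp2, with the smallest, with CpGs in capitals. They lie at chr4:134018817-134019066 and chr16:22163300-22163549, both on the minus strand, and hold 7 and 40 CpGs. Methylation was not analysed here, and the counts say nothing of it.
Lin28a: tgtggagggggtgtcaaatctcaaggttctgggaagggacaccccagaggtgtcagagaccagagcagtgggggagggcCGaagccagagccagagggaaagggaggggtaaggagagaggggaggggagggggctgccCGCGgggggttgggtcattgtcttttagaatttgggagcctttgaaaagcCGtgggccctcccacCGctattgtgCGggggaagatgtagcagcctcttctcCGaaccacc
Igf2bp2: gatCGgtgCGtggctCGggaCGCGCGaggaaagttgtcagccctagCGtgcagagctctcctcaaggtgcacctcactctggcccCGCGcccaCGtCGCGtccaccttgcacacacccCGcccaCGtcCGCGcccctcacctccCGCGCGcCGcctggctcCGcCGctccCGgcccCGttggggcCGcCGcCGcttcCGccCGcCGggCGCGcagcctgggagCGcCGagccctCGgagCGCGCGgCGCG

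Several members overlap an annotated gene on the other strand. Whether counting used the strand is not given in the sources used here, so reads of such partners cannot be told apart. Gm13061, which overlaps exons of Lin28a, was at 0.0272 to 0.101 FPKM in Dnmt3b+/+ and at 0.189 to 0.425 FPKM in the embryos labelled Dnmt3b-/-. Malsu1, opposite Igf2bp3, was at 7.46 to 8.38 FPKM and at 10.5 to 13.5 FPKM, and C130032M10Rik, opposite Trim71, at 0.105 to 0.123 FPKM and at 0.276 to 0.517 FPKM. Gm29202, opposite Igf2bp1, was at 1.65 to 1.75 FPKM and at 2.10 to 2.97 FPKM, and 1700006J14Rik, opposite Hmga2, at 1.48 to 3.33 FPKM and at 4.92 to 5.30 FPKM. These 5 partners were higher in every embryo labelled Dnmt3b-/- than in any Dnmt3b+/+ embryo. AI413582, opposite Hmga1, was lower there, at 1.48 to 1.69 FPKM against 1.89 to 2.54 FPKM, and 9230105E05Rik, which lies opposite an intron of Hmga2, overlapped between the genotypes, at 0.0669 to 0.188 FPKM against 0.0803 to 0.239 FPKM. Lin28b and Igf2bp2 overlap no other annotated gene.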

How the data were processed

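Per the labels and the methods of the study, the authors isolated total RNA of whole embryos, sequenced it as paired-end reads, aligned them to mm10 with STAR and quantified genes in SeqMonk. The deposited table holds linear FPKM values for 34245 rows, 1 without a name, which was left out. A gene without reads carries a floor of 0.9 reads. The 9 other samples (bisulfite sequencing) were not analysed here.

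The 19397 genes reaching 0.1 FPKM in 3 or more of the 9 embryos entered limma (version 3.58.1, R 4.3.3) as log2(FPKM + 0.1), in 1 fit of all embryos with genotype as the term and a variance trend. Adjusted p is Benjamini-Hochberg over all tested genes. A call needs an adjusted p under 0.05 and a fold of at least 2. The script was tested on simulated data. DESeq2, which the authors name, was not run, since the deposited values are FPKM. FPKM carries no correction for composition, so alternatives of scaling, filter, pseudocount, block and left-out embryos were run. Reads were worked back from FPKM, exon length and library totals to show depth, and did not come out whole for some genes, Hmga1 and Igf2bp2 among them. Embryos are separate animals. The genes most like Lin28a, or like the mean of the members, were the leading 6 by Pearson's r.

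The members and all lists were chosen with earlier results of these data known. From each list the text names up to 4 called genes in each direction by size and, with fewer than 2 called, the 2 most abundant genes. Other genes of the lists that it names (Zcchc11, Drosha, Tarbp2, Ago4, Tnrc6b, Tnrc6c, Myc, Mycn, Igdcc4, Nr6a1, Stard13, Utf1, Pou5f1, Actn2, Dcx, Hbb-bt, E2f3, Ccnd1, Ccnb1, Ccnb2, Ccna2, Ccne1, Ccne2, Cdkn2c, Rbl2) were chosen after their values were seen. Sequences are from RefSeq (GRCm38.p6) and GENCODE M21. Protein sequences were not used here. A further gene is not reported here.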

Additional observations from a re-analysis of the deposited data

How the results depend on the processing

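All 8 members kept a positive difference of embryos labelled Dnmt3b-/- from both other genotypes under all alternatives that could be run for them. There were 19 of these, but 18 for Lin28a, which a filter of 1 FPKM in 3 embryos removes, so that it cannot be called there. None of the members was called between Dnmt3bCI/CI and Dnmt3b+/+ under any alternative. The number of members past both thresholds was 4 against Dnmt3b+/+ and 3 against Dnmt3bCI/CI. It became 2 and 0 with a pseudocount of 1 FPKM and 8 and 8 without the fold threshold, and it ranged from 2 to 4 and from 2 to 3 when 1 embryo was left out, the 2 against Dnmt3b+/+ being without Dnmt3b+/+ replicate 2. Without the fold threshold, the lists held 6 calls (microRNA factors), 16 (let-7 targets), 6 (insulin-like growth factor axis), 10 (cell cycle), 3 (pluripotency), 8 (oncofetal and fetal growth) and 6 (timing). At that threshold 9.41% of all tested genes were higher, and of 13653 genes without a let-7 match 1478 were higher and 2389 lower. Nothing is read from these list counts. With a pseudocount of 1 FPKM the counts were 0 (insulin-like growth factor axis, cell cycle, pluripotency) and 1 (oncofetal and fetal growth). The insulin-like growth factor axis also had 0 with a filter of 1 FPKM, which removes Igfbp6, and 0 with quantile normalization, where the cause was not tested. With 1 embryo left out, let-7 targets ranged from 1 to 2, cell cycle genes from 0 to 1 and pluripotency genes from 1 to 3. Without both Dnmt3b+/+ replicate 2 and replicate 1 labelled Dnmt3b-/-, added after seeing the data, they had 2, 0 and 4 calls. Same-numbered embryos did not deviate together (mean r -0.0865 over 9 pairs, against 0.0478 over 18 others). Whether they share a litter or batch cannot be told from this, since deviations from means of 3 embryos are not independent and litters are not given. With the number as a replicate block, the members called were 4, 3 and 0 in the 3 comparisons, as without the block. The median of genes with let-7 matches stayed between -0.12 and -0.00126. With 8-base matches only, Lin28b and Hmga2 kept 1 match and Hmga1 0. At these depths Lin28a rests on 20 to 283 reads per library, which limits its precision.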

Other observations

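Marker lists of other cell types gave the following values. Of 8 germ cell markers, 2 rose in the embryos labelled Dnmt3b-/-. Dazl, an RNA-binding protein of germ cells, rose from 0.00682 to 0.152 FPKM in Dnmt3b+/+ to 2.56 to 2.85 FPKM (limma, adjusted p = 9.61e-05). The germ cell helicase Ddx4 rose from 0.0266 to 0.0966 FPKM to 1.78 to 1.94 FPKM (adjusted p = 2.36e-05), and it was the only gene of the pathway and marker lists called in Dnmt3bCI/CI against Dnmt3b+/+, at 0.440 to 0.667 FPKM with a log2 difference of 2.04 (adjusted p = 0.00331). Of 8 tested tail bud markers, Fgf8 rose, with a log2 difference of 1.74 (adjusted p = 0.0163, at most 0.0593 over the alternatives, the call being lost without replicate 2 or 3 labelled Dnmt3b-/- and with only the 2 genotypes in the fit). Lfng, of the same list, had a log2 difference of -0.15 (adjusted p = 0.533).

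Of 8 fetal liver markers, 1 passed the test with all libraries: Ttr, a thyroid hormone carrier made in liver and other tissues, fell by 2.19 on the log2 scale (adjusted p = 0.0121). Dnmt3b+/+ replicate 2 decided this count. Without it, 6 of 8 fell and all 8 were negative, with a median of -1.77 against -0.01, and Alb turned from 0.44 (adjusted p = 0.881) to -2.31 (adjusted p = 0.00807) and Afp from 1.69 (adjusted p = 0.549) to -1.08 (adjusted p = 0.0864). Ttr did not follow the other liver markers, since it was highest, at 35.5 FPKM, in Dnmt3b+/+ replicate 2, where Afp was at 0.119 and Alb at 0.103 FPKM. The sum of the 8 was 35.9 to 237 FPKM in Dnmt3b+/+, lowest in replicate 2, and 45.6 to 93.9 FPKM in the embryos labelled Dnmt3b-/-.

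None of 8 heart, 6 endothelium and 8 neural progenitor markers passed both thresholds of the limma test. In the heart list 7 of 8 differences were positive, with a median of 1.34, and Myl7 and Nppa had 1.88 and 1.79 (adjusted p = 0.403 and 0.582). Nppa ranged from 0.104 to 38.7 FPKM within Dnmt3b+/+, and without Dnmt3b+/+ replicate 1 the median was 0.00887. The sarcomere gene Actn2 ran the other way, at -0.97 (adjusted p = 0.0262), and was called lower without Dnmt3b+/+ replicate 1 or without replicate 2 labelled Dnmt3b-/-, which made 1. Cdh5 and Tie1 of the endothelium had log2 differences of -0.12 and -0.07 (adjusted p = 0.247 and 0.694). Of the progenitor filaments, Vim had -0.02 (adjusted p = 0.897) and Nes 0.51 (adjusted p = 0.0385).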
